A study of Homo sapiens with 12 samples.

Results

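A set of 10 genes that govern the G1 phase of the cell cycle was followed across the RNA-seq libraries: the D-type cyclins CCND1 and CCND3, the kinases CDK4 and CDK6, the E-type cyclins CCNE1 and CCNE2, the CDK inhibitors CDKN1A, CDKN1B and CDKN2C, and the retinoblastoma gene RB1. They were chosen by symbol, and all 10 were found among the 26475 gene symbols of the count table and among the 14582 genes that passed the filter on low counts. MIAPaCa2 is an established glycolytic PDAC cell line, and oxamate is a pyruvate analog that inhibits LDHA. The 4 groups of 3 libraries each were parental cells without and with oxamate, and oxamate-resistant cells without and with oxamate. The labels call the groups without oxamate untreated and the paper calls them vehicle-treated. The oxamate-resistant cells were polyclonal populations that survived continuous culture in 10 mM sodium oxamate for 4 weeks, so they carry earlier oxamate exposure in both of their groups. The dose and duration of oxamate before RNA extraction were not given in the sources used here. The labels do not say that replicates came from separate cultures, so p-values measure the spread between these samples, which may be technical. Independent derivations of resistant cells are not described either, so p-values between cell lines do not measure the spread between derivations.

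In G1, D-type cyclins bind CDK4 or CDK6, and these complexes phosphorylate the RB1 protein. Phosphorylated RB1 releases E2F factors, which switch on the genes of DNA synthesis along with the E-type cyclins, and E-type cyclins with CDK2 complete the phosphorylation of RB1. INK4 inhibitors, such as the product of CDKN2C (p18), bind CDK4 and CDK6 alone, while CIP/KIP inhibitors, the products of CDKN1A (p21) and CDKN1B (p27), bind complexes of cyclin and CDK. Much of this control acts on the proteins, which were not measured in these libraries.

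Expected counts summed to between 46698729 and 114222169 in a library, and every parental library was deeper than every oxamate-resistant library. Levels are given as CPM after TMM normalization, which sets counts against the effective size of their library, and 3 counts correspond to between 0.0283 and 0.0581 CPM, a floor that covers counting error only. The keratins KRT8, KRT18 and KRT19 were present at 316 CPM or more in each library, while the epithelial genes EPCAM and CDH1 had at most 3 counts. Of the mesenchymal list, VIM was at 5917 CPM or more and ZEB1 at 55.5 CPM or more, while CDH2 had at most 2 counts. Leukocyte markers were at or near 0 (PTPRC at most 3 counts, CD3E at 0) with the exception of CD68, at 56.4 to 220.2 CPM, and CD79A, at 0.467 to 1.26 CPM. The summed level of the leukocyte list, which is nearly all CD68, was 156 to 221 CPM in parental and 57.3 to 64.3 CPM in resistant libraries. That of the epithelial list was 3279 to 3671 and 1759 to 1849.5 CPM, and that of the mesenchymal list 9463 to 10176 and 5976 to 6428 CPM. The part of any of these in the results between cell lines was not tested. The nuclear-retained RNA MALAT1 stood at 183 to 199 CPM in vehicle-treated parental cells and at 577 to 742 CPM in oxamate-treated resistant cells. In the groups between them, the third oxamate-treated parental library (596 CPM) and the third vehicle-treated resistant library (597 CPM) stood apart from their fellow libraries at 281 to 289 and 244 to 273 CPM. The part of MALAT1 content in the results was not tested, and calls of the 10 genes that differed without these 2 libraries are given with both values.

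The promoters of 2 genes are shown for a contrast that recurs below, that of a kinase with the higher level in oxamate-resistant cells (CDK6) and of an inhibitor of that kinase with the lower level (CDKN2C). RefSeq promoter windows of 300 bases, from 250 before to 50 after the start RefSeq gives a gene (GRCh38.p14), were at hand for 8 of the 10 genes, and CCND1 and CCNE2 had none. The stretches from 250 to 51 bases before the start are printed 5′ to 3′ for these 2 genes, whose stretches overlap no annotated exon and lie before the GENCODE bounds of the gene, with matches to the SP1 motif GGGCGG on either strand in capitals. They lie at chr7:92836624-92836823 on the minus strand for CDK6 and at chr1:50960495-50960694 on the plus strand for CDKN2C.
CDK6: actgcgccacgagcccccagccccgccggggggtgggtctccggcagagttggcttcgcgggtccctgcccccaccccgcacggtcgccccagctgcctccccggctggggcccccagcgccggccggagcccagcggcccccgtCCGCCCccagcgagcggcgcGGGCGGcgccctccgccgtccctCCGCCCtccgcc
CDKN2C: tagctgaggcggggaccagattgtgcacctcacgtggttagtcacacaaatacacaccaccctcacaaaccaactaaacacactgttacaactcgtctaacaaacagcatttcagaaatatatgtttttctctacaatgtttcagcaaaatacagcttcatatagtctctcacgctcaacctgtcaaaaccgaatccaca
The CDK6 stretch holds 3 SP1 matches and is 83.5% G and C, while the CDKN2C stretch holds none and is 42% G and C. Of 35116 RefSeq promoters, 45% hold an SP1 match in the full window. Matches to the E2F motifs TTTCCCGC, TTTCGCGC, TTTGCCGC and TTTGGCGC (3.31% of all promoters), to the CRE motif TGACGTCA (1.85%) and to the AP-1 motif TGACTCA (4.95%) occurred in neither of these windows. Of the 8 genes with a window, 6 held an SP1 match in it. Among them were CCND3, CDK4, CCNE1, CDKN1A and CDKN1B, which were lower in resistant cells after TMM normalization. Any tie of SP1 matches to the levels was not tested. These are matches of letters, and the motifs searched do not overlap one another.

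Per kilobase of transcript, which allows genes to be compared, CDKN1B and CDK4 had the highest levels of the 10 genes in each group and CCNE2 the lowest. Transcript length was taken as the median of the protein-coding transcripts in GENCODE release 29. In vehicle-treated parental cells CDKN1B stood at 95.7 ± 0.79 CPM per kb (SD, n = 3), CDK4 at 88.3 ± 3.23, CCND1 at 41.9 ± 0.82 and CCND3 at 20.6 ± 0.65. They were followed by CCNE1, RB1, CDKN2C and CDK6 between 10.5 and 14.9 CPM per kb, then CDKN1A at 3.3 and CCNE2 at 0.784. In this order CCNE1 and RB1 overlapped in their replicates, as did CDKN2C and CDK6, and the other neighbours did not. In vehicle-treated resistant cells CDK6 stood at rank 5 with 14.0 ± 0.28 CPM per kb, ahead of CCND3 at 13.1 ± 0.84, whose replicates overlapped with it. CDK6 had 2 coding transcripts, so its length of 6538.5 bases is their midpoint and the length of neither. Its rank rests on that length, and the SD covers the replicates only.

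**Figure D1:**
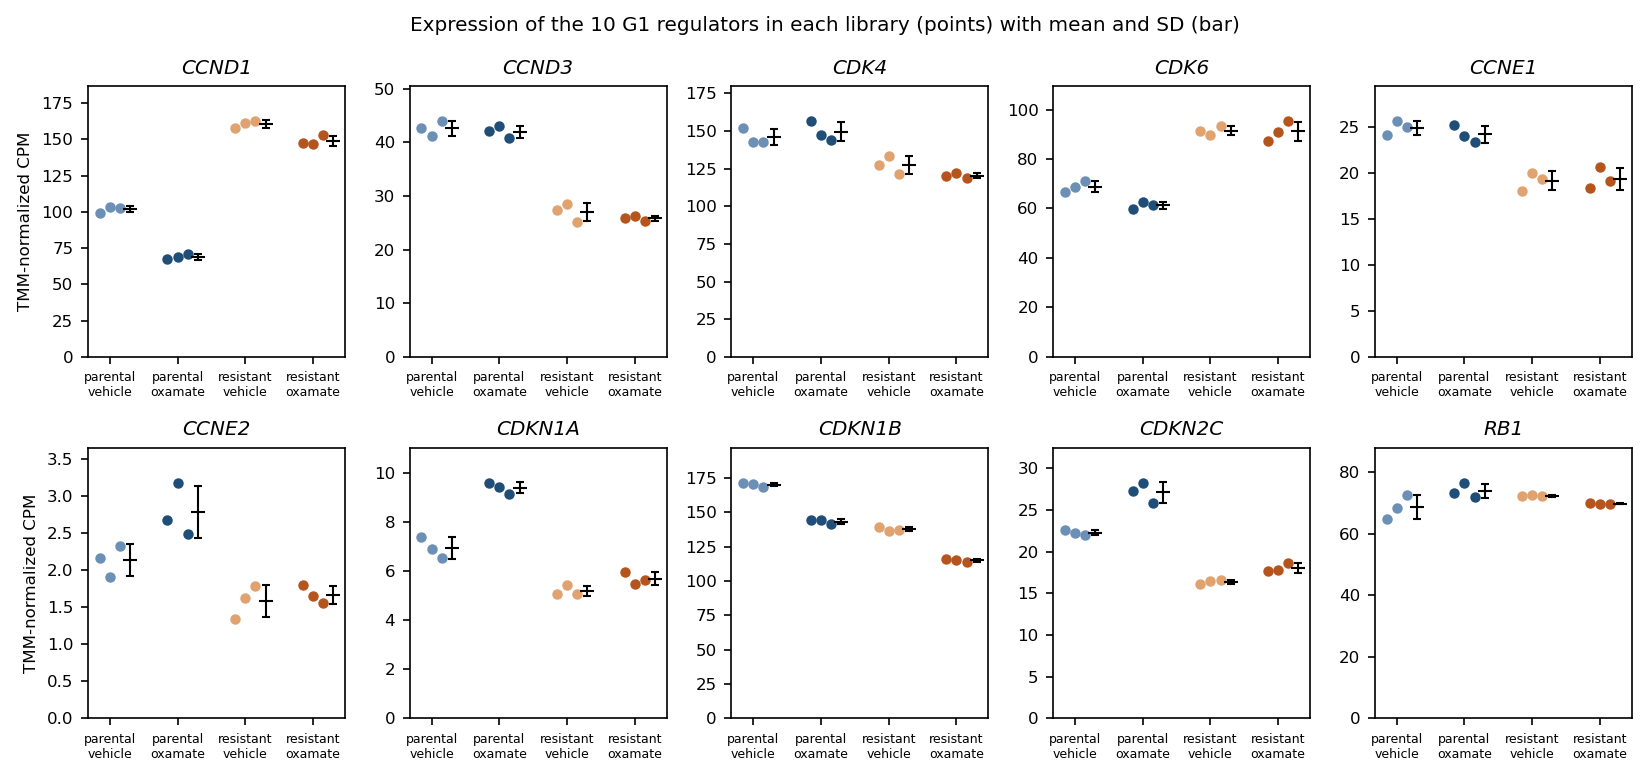
TMM-normalized CPM (y axis, from 0) of each G1 regulator in the 4 groups (x axis). Points are the 3 libraries of a group and bars the mean ± SD. CCND1 and CDK6 are higher in all oxamate-resistant than in all parental libraries. CCND3, CCNE1, CCNE2, CDKN1A, CDKN2C, CDK4 and CDKN1B are lower in all of them. On library size alone, values between cell lines after oxamate (log2) are 0.01 each for CDK4 and CDKN1B and -0.00 for CCNE1. The share of all genes without overlap was not counted. Of all genes, 38.4% were called higher and 37.3% lower between cell lines after vehicle, and 40.6% and 39.7% after oxamate.

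The clearest change was in CCND1, the cyclin D1 gene (chr11:69641087-69654474, plus strand, GRCh38), whose product is the D-type cyclin most often raised in tumors. It was at 99.4, 103 and 103 CPM in vehicle-treated parental cells and at 67.2, 68.5 and 71.0 CPM in oxamate-treated parental cells. Vehicle-treated resistant cells had 158, 161 and 162 CPM and oxamate-treated resistant cells 147, 147 and 153 CPM. No library of one group reached into another, and the resistant cells had the higher level under either treatment.

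Oxamate lowered CCND1 in parental cells by 0.56 on the log2 scale (-0.56 ± 0.03 (SE), edgeR adjusted p = 2.9e-10), to 0.678 of the vehicle level. The fall in resistant cells was smaller (-0.11 ± 0.03, edgeR adjusted p = 0.0114), and it missed the threshold without the second oxamate-treated resistant library (-0.10, adjusted p = 0.0513) and on library size alone (-0.08, adjusted p = 0.1). The difference between these responses was itself past the threshold, at 0.45 ± 0.04 (edgeR adjusted p = 2.66e-07). Resistant cells had 1.58 times the parental level after vehicle (log2 0.66 ± 0.03, edgeR adjusted p = 4.79e-12) and 2.16 times after oxamate (1.11 ± 0.03, edgeR adjusted p = 7.93e-15).

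CCND3, the cyclin D3 gene (chr6:41934933-42050357, minus strand), went the other way between the cell lines. It was at 42.6, 41.2 and 43.9 CPM in vehicle-treated and 42.1, 43.1 and 40.8 CPM in oxamate-treated parental cells. In resistant cells it was at 27.3, 28.5 and 25.1 CPM after vehicle and 25.9, 26.2 and 25.3 CPM after oxamate. The resistant libraries lay below all parental libraries, and the treatments overlapped within each cell line. The level in resistant cells was lower by 0.66 on the log2 scale after vehicle (-0.66 ± 0.04, edgeR adjusted p = 7.9e-10) and by 0.70 after oxamate (-0.70 ± 0.04, edgeR adjusted p = 2.72e-10). No response to oxamate passed the test in parental cells (-0.02, 95% interval -0.11 to 0.06) or in resistant cells (-0.06, -0.16 to 0.03), though on library size alone the parental value passed (-0.10, edgeR adjusted p = 0.0348). In resistant cells without the 2 libraries rich in MALAT1, the value of CCND3 passed the test (-0.12, edgeR adjusted p = 0.0399).

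Because CCND1 and CCND3 moved apart, the makeup of the D-type cyclin transcripts differed between the cell lines in a way that no scaling of the libraries can alter. Per kilobase, CCND1 exceeded CCND3 by 1.98, 2.12 and 1.99 times in vehicle-treated parental libraries and by 1.36, 1.35 and 1.48 times after oxamate. In resistant cells the ratio was 4.91, 4.81 and 5.50 after vehicle and 4.83, 4.76 and 5.13 after oxamate. The mean ratio in resistant cells was thus 2.5 times the parental ratio after vehicle and 3.51 times after oxamate, with no overlap between libraries. CCND2, the third D-type cyclin, stood far lower in CPM (0.615 ± 0.136 in parental and 1.26 ± 0.158 in resistant cells after vehicle) and was higher in resistant cells (log2 1.06 ± 0.19, edgeR adjusted p = 9.96e-05).

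Of the kinases that D-type cyclins activate, CDK6 was higher and CDK4 was lower in oxamate-resistant than in parental cells. CDK6 (chr7:92604921-92836594, minus strand) was at 66.8, 68.5 and 71.1 CPM in vehicle-treated parental cells and at 59.9, 62.8 and 61.4 CPM after oxamate. In resistant cells it was at 91.4, 89.5 and 93.3 CPM after vehicle and 87.4, 90.8 and 95.2 CPM after oxamate. The parental treatments did not overlap, the resistant treatments did, and every resistant library exceeded every parental library.

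CDK6 was thus 1.33 times as high in resistant as in parental cells after vehicle (log2 0.41 ± 0.03, edgeR adjusted p = 1.53e-08) and 1.49 times as high after oxamate (0.57 ± 0.03, edgeR adjusted p = 2.1e-10). It fell with oxamate in parental cells (-0.16 ± 0.03, edgeR adjusted p = 0.000692). In resistant cells its response was -0.00 (95% interval -0.07 to 0.07), and the responses differed by 0.16 ± 0.05 (edgeR adjusted p = 0.0128). CDK6 and CCND1, a kinase and its cyclin, were the 2 genes among the 10 whose response to oxamate was higher in resistant than in parental cells at this threshold.

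CDK4 (chr12:57747727-57756013, minus strand) was at 152, 143 and 143 CPM in vehicle-treated and 156, 148 and 144 CPM in oxamate-treated parental cells. It was at 127, 133 and 121 CPM in vehicle-treated and 120.0, 122 and 119 CPM in oxamate-treated resistant cells. The resistant libraries were below all parental libraries after TMM normalization. After vehicle CDK4 was lower by 0.20 on the log2 scale (-0.20 ± 0.04, edgeR adjusted p = 0.000177) and after oxamate by 0.31 (-0.31 ± 0.04, edgeR adjusted p = 1.24e-06), but on library size alone the values were 0.02 and 0.01 and neither passed the test. Its response to oxamate was 0.03 (95% interval -0.04 to 0.11) in parental cells and -0.08 (-0.16 to 0.00) in resistant cells. In resistant cells that value passed the test without the third vehicle-treated library (-0.11, edgeR adjusted p = 0.0447), and without both libraries rich in MALAT1 (-0.11, edgeR adjusted p = 0.0183).

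CDK4 shares 1078 exonic bases with TSPAN31 on the opposite strand and CCNE2 shares 1629 with INTS8, and the sources used here do not say whether counting used the strand. Of the deposited values of CDK4 91.7% were not whole numbers, of CCNE2 100% and of CDK6 16.7%, so RSEM gave part of their reads to these genes only in fractions. Where the rest of those reads went was not tested. The other 7 genes had whole counts in all libraries. The ratio of CDK6 to CDK4 per kilobase was 0.111, 0.121 and 0.126 in vehicle-treated and 0.0967, 0.107 and 0.108 in oxamate-treated parental libraries. In resistant libraries it was 0.181, 0.170 and 0.194 after vehicle and 0.184, 0.187 and 0.202 after oxamate. Transcripts of CDK4 outnumbered those of CDK6 in each library, and the mean ratio in resistant cells was 1.52 times the parental mean after vehicle and 1.84 times after oxamate, without overlap and whatever the scaling of the libraries.

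**Figure D2:**
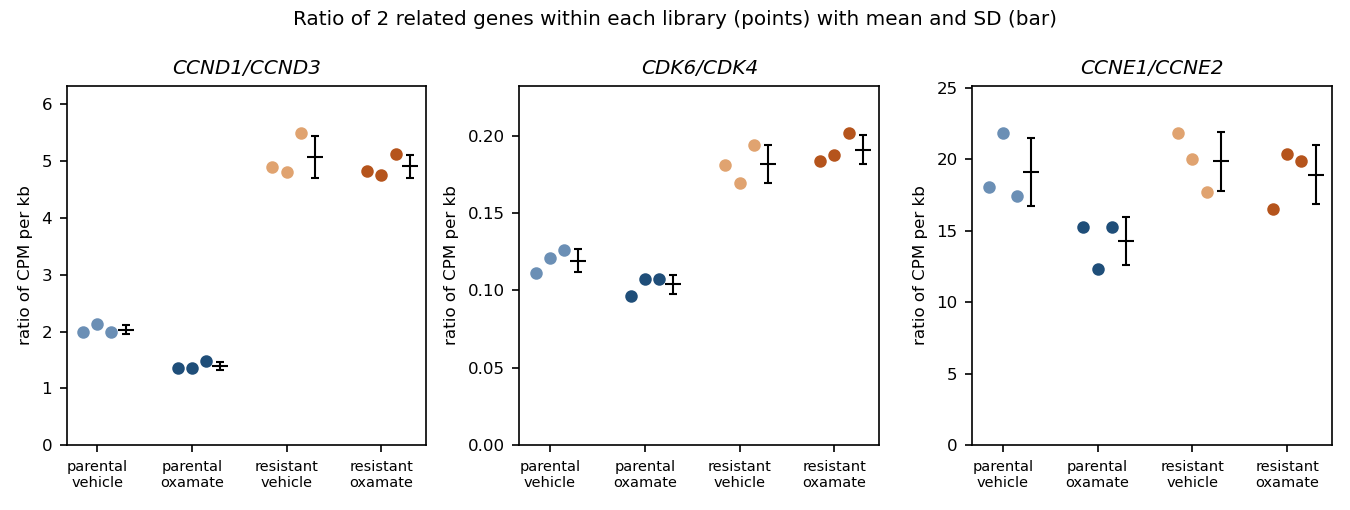
Ratio of CPM per kilobase (y axes, from 0) for CCND1 to CCND3, CDK6 to CDK4 and CCNE1 to CCNE2 in the 12 libraries (points) with the mean ± SD of each group (bars). The first 2 ratios are higher in all resistant than in all parental libraries, and the ratio of CCNE1 to CCNE2 is lowest in oxamate-treated parental cells (12.3 to 15.3).

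The E-type cyclins, which act with CDK2 later in G1, were both lower in resistant than in parental cells. CCNE1 (chr19:29811898-29824308, plus strand) was at 24.1, 25.7 and 25.1 CPM in vehicle-treated and 25.3, 24.1 and 23.4 CPM in oxamate-treated parental cells. In resistant cells it was at 18.1, 20.1 and 19.4 CPM after vehicle and 18.4, 20.6 and 19.1 CPM after oxamate. The cell lines did not overlap and the treatments did. CCNE1 was lower by 0.38 on the log2 scale after vehicle (-0.38 ± 0.05, edgeR adjusted p = 3.28e-06) and by 0.32 after oxamate (-0.32 ± 0.05, edgeR adjusted p = 1.94e-05), where the value on library size alone was -0.00 (adjusted p = 0.994). Neither response to oxamate passed the test, at -0.04 (95% interval -0.14 to 0.06) in parental and 0.01 (-0.10 to 0.12) in resistant cells, though on library size alone the parental value passed (-0.12, edgeR adjusted p = 0.0454).

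CCNE2 was the least abundant of the 10, with 77.05 to 229.61 expected counts per library. It was at 2.17, 1.91 and 2.33 CPM in vehicle-treated and 2.68, 3.18 and 2.49 CPM in oxamate-treated parental cells. In resistant cells it was at 1.34, 1.63 and 1.78 CPM after vehicle and 1.80, 1.65 and 1.56 CPM after oxamate. Oxamate thus raised CCNE2 in parental cells, without overlap, and left overlapping values in resistant cells. The rise was 0.38 ± 0.12 on the log2 scale (edgeR adjusted p = 0.0116), and it missed the threshold without the second vehicle-treated (0.31, adjusted p = 0.0624) or second oxamate-treated parental library (0.28, adjusted p = 0.0666). Resistant cells had less CCNE2 after vehicle (-0.42 ± 0.13, edgeR adjusted p = 0.00734) and after oxamate (-0.73 ± 0.13, edgeR adjusted p = 7.45e-05); on library size alone, the first missed the threshold (-0.20, adjusted p = 0.158). The difference between the responses, -0.31, did not pass (95% interval -0.70 to 0.08).

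The 3 inhibitors were all lower in resistant than in parental cells, while their responses to oxamate went in different directions. CDKN1A (chr6:36676460-36687339, plus strand), which encodes p21 and is a target of p53 in many cells, was at 7.40, 6.89 and 6.54 CPM in vehicle-treated and 9.60, 9.44 and 9.16 CPM in oxamate-treated parental cells. It was at 5.06, 5.43 and 5.08 CPM in vehicle-treated and 5.97, 5.46 and 5.62 CPM in oxamate-treated resistant cells. Neither the treatments nor the cell lines overlapped. CDKN1A rose with oxamate in parental cells (log2 0.43 ± 0.06, edgeR adjusted p = 1.21e-05). In resistant cells the value of 0.13 ± 0.07 did not pass (edgeR adjusted p = 0.175), and the responses differed (-0.30 ± 0.09, edgeR adjusted p = 0.0118), though not on library size alone (-0.20, adjusted p = 0.0699). The level in resistant cells was 0.745 of the parental level after vehicle (-0.42 ± 0.06, edgeR adjusted p = 1.36e-05) and 0.605 after oxamate (-0.72 ± 0.06, edgeR adjusted p = 1.91e-08).

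CDKN1B (chr12:12715058-12722371, plus strand), which encodes p27, was the 1 gene of the 10 with a like fall after oxamate in both cell lines. It was at 171, 170.4 and 169 CPM in vehicle-treated and 144, 144 and 141 CPM in oxamate-treated parental cells. It was at 139, 137 and 137 CPM in vehicle-treated and 116, 115 and 114 CPM in oxamate-treated resistant cells. None of the 4 groups overlapped. CDKN1B fell by 0.25 on the log2 scale in parental cells (-0.25 ± 0.02, edgeR adjusted p = 9.69e-08) and by 0.26 in resistant cells (-0.26 ± 0.02, edgeR adjusted p = 1.24e-06). The difference between these responses was -0.01, with a 95% interval from -0.08 to 0.06 (edgeR adjusted p = 0.816), and on library size alone it was 0.10 and passed the test (adjusted p = 0.0103). Between cell lines CDKN1B was lower in resistant cells after vehicle (-0.31 ± 0.02, edgeR adjusted p = 2.71e-09) and after oxamate (-0.32 ± 0.02, edgeR adjusted p = 1.28e-09), the latter turning to 0.01 on library size alone (adjusted p = 0.725).

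CDKN2C (chr1:50960745-50974633, plus strand), whose promoter is printed above, was at 22.6, 22.3 and 22.0 CPM in vehicle-treated and 27.3, 28.3 and 25.8 CPM in oxamate-treated parental cells. It was at 16.1, 16.4 and 16.6 CPM in vehicle-treated and 17.6, 17.8 and 18.7 CPM in oxamate-treated resistant cells. It rose with oxamate in both cell lines and was lower in resistant cells throughout, with no overlap. The rise was 0.28 ± 0.04 on the log2 scale in parental cells (edgeR adjusted p = 1.21e-05) and 0.14 ± 0.04 in resistant cells (edgeR adjusted p = 0.0262). The latter lost its call in DESeq2 (adjusted p = 0.0736) and without the first (0.13, adjusted p = 0.0947) or the second (0.14, adjusted p = 0.0686) vehicle-treated or the third oxamate-treated (0.12, adjusted p = 0.12) resistant library. The difference of -0.14 ± 0.06 between the responses missed the threshold (edgeR adjusted p = 0.06), and it passed without the third oxamate-treated parental library (-0.18, adjusted p = 0.0159) or the third oxamate-treated resistant library (-0.16, adjusted p = 0.0396), and without both libraries rich in MALAT1 (-0.17, adjusted p = 0.0304). Resistant cells had less CDKN2C after vehicle (-0.45 ± 0.04, edgeR adjusted p = 4.56e-08) and after oxamate (-0.58 ± 0.04, edgeR adjusted p = 1.08e-09).

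RB1 (chr13:48303726-48599436, plus strand), the substrate of the cyclin D kinases, varied least of the 10 genes, with group means within 0.11 of each other on the log2 scale. It was at 64.8, 68.5 and 72.6 CPM in vehicle-treated and 73.1, 76.5 and 71.9 CPM in oxamate-treated parental cells. It was at 72.2, 72.5 and 72.1 CPM in vehicle-treated and 70.1, 69.6 and 69.6 CPM in oxamate-treated resistant cells. The parental treatments overlapped. Its values with calls were small: 0.11 ± 0.04 with oxamate in parental cells (edgeR adjusted p = 0.0158), -0.16 ± 0.05 for the difference between responses (edgeR adjusted p = 0.0181) and -0.08 ± 0.04 between cell lines after oxamate (edgeR adjusted p = 0.0492), the last of which turned to 0.01 with upper-quartile factors and to 0.24 on library size alone.

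The calls of RB1 depended on 1 library or on the setting in several places. The oxamate response in parental cells was lost without the first vehicle-treated library (0.07, adjusted p = 0.0873) or the second oxamate-treated library (0.08, adjusted p = 0.0808), and also on library size alone (0.03, adjusted p = 0.45) and in a fit of the parental groups alone (0.11, adjusted p = 0.0554). The difference between responses was lost without the second oxamate-treated parental library (-0.13, adjusted p = 0.052) and on library size alone (-0.05, adjusted p = 0.429). The call between cell lines after oxamate was lost without any of the first 2 parental or the 3 resistant oxamate-treated libraries, at adjusted p from 0.0661 to 0.207, and also with limma-voom (adjusted p = 0.0569), a mean count of at least 25 (0.145) and a fit of the groups compared (0.11). After vehicle, RB1 did not differ at the threshold between cell lines (0.08 ± 0.04, edgeR adjusted p = 0.0585) but did without the third vehicle-treated parental library (0.12, adjusted p = 0.00421), with upper-quartile factors (0.15, adjusted p = 0.00111), on library size alone (0.30, adjusted p = 2.54e-06), with limma-voom (0.08, adjusted p = 0.0492) and with a mean count of at least 25 (0.10, adjusted p = 0.0208). For CDK4, the difference between responses of -0.11 (edgeR adjusted p = 0.0946) passed the test without the first vehicle-treated parental (-0.15, adjusted p = 0.0358), the third oxamate-treated parental (-0.14, adjusted p = 0.0352) or the third vehicle-treated resistant library (-0.15, adjusted p = 0.028), without both libraries rich in MALAT1 (-0.17, adjusted p = 0.00587) and with a replicate block (-0.11, adjusted p = 0.0417).

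**Figure D3:**
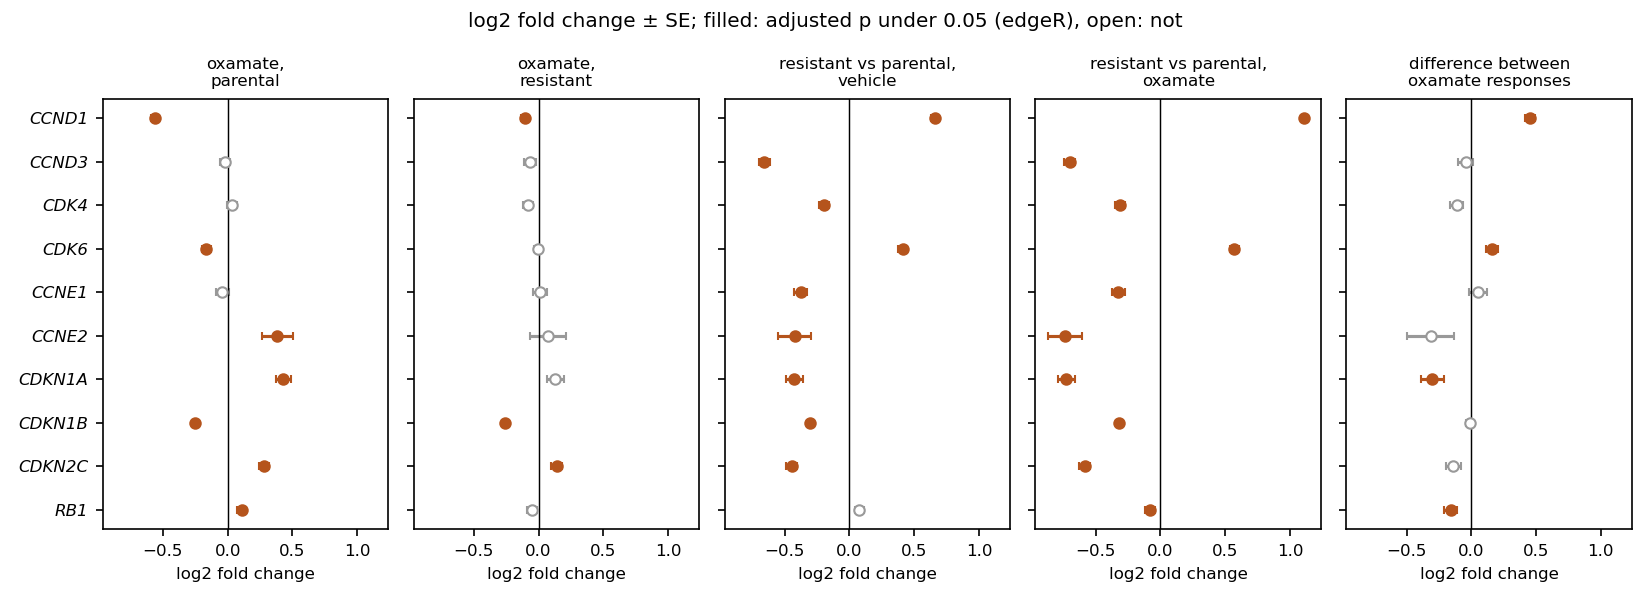
log2 fold change ± SE (x axis) of the 10 G1 regulators (y axis) in 5 comparisons after TMM normalization. Filled points passed an edgeR adjusted p of 0.05 and open points did not. CCND1 lies at 0.66 and 1.11 between cell lines and at -0.56 and -0.11 for oxamate, and on library size alone the values of CDK4 and, after oxamate, of CDKN1B and RB1 change sign between cell lines.

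Counted together, 4 of the 10 genes rose with oxamate in parental cells (CCNE2, CDKN1A, CDKN2C and RB1), against 28.3% of all genes tested, and 3 fell (CCND1, CDK6 and CDKN1B), against 30.4%. In resistant cells 1 rose (CDKN2C), against 9.01%, and 2 fell (CCND1 and CDKN1B), against 12.5%. Without the 2 libraries rich in MALAT1, 5 rather than 3 of the 10 were called in resistant cells, CCND3 and CDK4 being the added ones, and 6 rather than 4 for the difference between responses, CDK4 and CDKN2C being added. Genes were also called at p under 0.05 before adjustment with a change over 1.5-fold. This is named the study's threshold here, though the paper does not say whether its p was adjusted. The paper tested with DESeq2 and reports fewer genes in each comparison than edgeR called here. With edgeR, 0 of the 10 were called for oxamate in parental cells (9.88% of all genes) and 0 in resistant cells (2.50%). Both limma-voom and DESeq2 gave 0 as well, where edgeR called 7 and 3 at an unadjusted and at an adjusted p under 0.05. These shares are near those of all genes, and the responses of the cell lines share no libraries, while each comparison between cell lines shares its libraries with them.

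Between cell lines after vehicle 2 of the 10 were higher in resistant cells (38.4% of all genes) and 7 were lower (37.3%). After oxamate 2 were higher (40.6%) and 8 were lower (39.7%), and the 2 genes were CCND1 and CDK6 in both comparisons. Past the study's threshold were 2 genes after vehicle (CCND1 and CCND3, 23.4% of all genes) and 4 after oxamate (CCND1, CCND3, CCNE2 and CDKN1A, 34.3%). Of the differences between oxamate responses, 2 were higher (CCND1 and CDK6, 22.7%) and 2 were lower (CDKN1A and RB1, 21.4%), and 0 of the 10 exceeded 1.5-fold at an adjusted p under 0.05 (7.52%), with edgeR, limma-voom or DESeq2, beside 6 at an unadjusted p under 0.05 with edgeR. The median log2 fold change of the 10 between cell lines was -0.34 after vehicle and -0.32 after oxamate, beside 0.03 and 0.01 for all genes. Bulk libraries cannot tell fewer cells in a phase of the cycle from less RNA per cell.

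Scaling mattered for these medians. On library size alone the median of all genes moved to 0.24 after vehicle and 0.34 after oxamate, and with upper-quartile factors to 0.10 in both. Relative to the median of all genes on library size alone, CDK4 was at -0.22 and -0.33, CDKN1B at -0.33 and -0.33 and CCND1 at 0.63 and 1.10. With this shift, 3 of the 10 were called higher and 5 lower after vehicle, and 3 higher and 4 lower after oxamate. Among all genes, 58.6% were then called higher and 19.0% lower after vehicle, against 38.4% and 37.3% with TMM, and 62.6% and 19.3% after oxamate, against 40.6% and 39.7%.

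**Figure D4:**
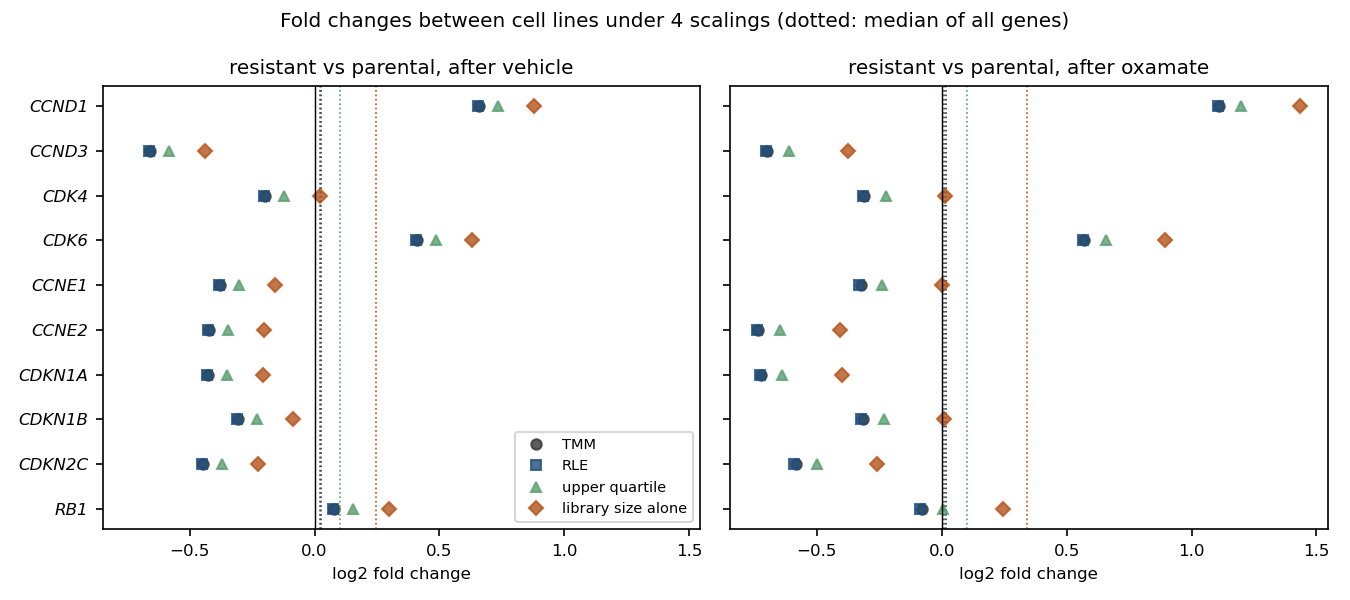
log2 fold change between resistant and parental cells (x axis) of the 10 G1 regulators (y axis) with 4 scalings (symbols), after vehicle and after oxamate. Dotted lines mark the median of all genes in the scaling of the same color. CCND1 and CDK6 stay above and CCND3, CCNE2, CDKN1A and CDKN2C below 0 in all 4, while CDK4 (0.02 and 0.01) and, after oxamate, CDKN1B (0.01) and RB1 (0.24) pass 0 on library size alone.

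The other inhibitors of these kinases showed larger differences than the 3 above between the cell lines. With oxamate in parental cells, their rise was close to that of CDKN1A (log2 0.43 ± 0.06) and was not set apart from it. CDKN1C, which encodes p57, was at 115 ± 4.93 CPM in vehicle-treated and 158 ± 5.3 CPM in oxamate-treated parental cells, and at 55.7 ± 2.33 and 43.0 ± 1.53 CPM in resistant cells. CDKN2D, which encodes p19, was at 58.3 ± 3.13 and 80.4 ± 0.32 CPM in parental and at 27.5 ± 0.652 and 25.3 ± 1.2 CPM in resistant cells. Both rose with oxamate in parental cells (log2 0.46 each, edgeR adjusted p = 4.45e-08 and 4.3e-08), and CDKN1C fell in resistant cells (-0.37 ± 0.04, edgeR adjusted p = 2.59e-05), where without the 2 libraries rich in MALAT1 both were called lower rather than 1. Resistant cells had less of both after vehicle (-1.05 and -1.08) and after oxamate (-1.88 and -1.67), with edgeR adjusted p of 1.67e-12 or lower.

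The INK4 genes CDKN2A and CDKN2B, on chromosome 9 (chr9:21967753-21995301 and chr9:22002903-22009363, GRCh38), had 0 counts in all 12 libraries, as did their neighbor MTAP. A count of 0 allows up to 3 counts in a library, that is at most 0.0581 CPM. With these genes included, 28 protein-coding genes of the table, interferon genes such as IFNB1 among them, lay between ACER2, 2.52 Mb to one side, and CAAP1, 4.85 Mb to the other. None of these 28 had more than 3 counts in any library. CDKN2C and CDKN2D were thus the 2 INK4 genes with transcripts in these cells.

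Among the other G1 cyclins, kinases and activators, 7 of 10 were lower and 1 was higher in resistant cells after vehicle (median log2 fold change -0.40, beside 0.03 for all genes). The lowest was CKS2, which encodes a small CDK-binding subunit, at 403 ± 16.8 CPM in parental and 149 ± 6.37 CPM in resistant cells (-1.44 ± 0.04, edgeR adjusted p = 4.06e-14). CDK2, the partner of the E-type cyclins, was lower too (-0.71 ± 0.03, edgeR adjusted p = 3.64e-12), and CCND2 was the one that was higher. After oxamate CKS2 was at -1.78 ± 0.04 and CCND2 at 1.43 ± 0.21, with 8 of 10 lower and 2 higher (median -0.52). After vehicle on library size alone 5 were lower and 2 higher, and 6 lower and 4 higher after oxamate (median -0.19 in both). With oxamate, CDC25A, a phosphatase that activates CDK2, fell in parental cells from 7.82 ± 0.223 to 3.94 ± 0.202 CPM (-0.98 ± 0.06, edgeR adjusted p = 2.39e-09), while CDK3 rose (0.67 ± 0.16, edgeR adjusted p = 0.002). In resistant cells CKS2 (-0.34 ± 0.04) and CKS1B (-0.15 ± 0.03) fell furthest of the 4 of 10 that fell, and none rose. For this list and those below, 38.4% of all genes were called higher and 37.3% lower between cell lines after vehicle. After oxamate the shares were 40.6% and 39.7%. With oxamate 28.3% rose and 30.4% fell in parental cells, and 9.01% and 12.5% in resistant cells. A count near these shares does not set a list apart from all genes.

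The E2F factors downstream of RB1 did not move as a block. E2F1, an activator of S-phase genes, was lower in resistant cells (36.0 ± 2.25 CPM in parental and 20.8 ± 0.726 CPM in resistant cells after vehicle, -0.79 ± 0.06, edgeR adjusted p = 7.71e-09). E2F5, which works with RB1 relatives as a repressor, was higher (0.49 ± 0.07, edgeR adjusted p = 8.54e-06). In all, 6 of 12 pocket proteins and E2F or DP factors were higher and 2 lower after vehicle (median 0.11), and 8 were higher and 3 lower after oxamate (median 0.27), with E2F8 at 1.32 ± 0.07 and E2F3 at 1.03 ± 0.05. On library size alone 9 were higher and 1 lower after vehicle (median 0.33), and 11 higher and 1 lower after oxamate (median 0.59). Oxamate lowered 5 and raised 2 of the 12 in parental cells, E2F8 (-0.91 ± 0.07) and E2F3 (-0.69 ± 0.05) falling furthest, while in resistant cells 1 rose (RBL1, 0.18 ± 0.05) and 1 fell (E2F5, -0.22 ± 0.07).

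The G1/S genes that E2F factors control, for DNA synthesis and replication origins, were lower in resistant cells almost throughout. After vehicle 26 of 27 were lower and none was higher (median -0.56), POLA2 being the gene that did not pass, and after oxamate 25 were lower and CDC25A was higher (median -0.61), RRM2 (-1.44 ± 0.03) and CDT1 (-1.06 ± 0.03) lying lowest. RRM2, a subunit of ribonucleotide reductase, went from 311 ± 1.71 CPM in parental to 146 ± 0.173 CPM in resistant cells after vehicle (-1.09 ± 0.02, edgeR adjusted p = 5.37e-15), and MCM7, part of the replicative helicase, from 410.4 ± 13.7 to 207 ± 0.765 CPM (-0.99 ± 0.03, edgeR adjusted p = 2.57e-14). On library size alone 23 were lower and 1 higher after vehicle (median -0.34), and 17 lower and 4 higher after oxamate (median -0.28). CDC25A and CCNA2 stand in this list and in that of the other G1 cyclins and kinases.

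With oxamate in parental cells 13 of the 27 G1/S genes rose and 5 fell (median 0.07), against 7 higher and 10 lower on library size alone (median -0.01). In resistant cells 9 rose and none fell (median 0.09). TK1, a thymidine kinase, rose furthest there, from 59.3 ± 1.6 to 70.1 ± 1.18 CPM (0.24 ± 0.03, edgeR adjusted p = 0.000131), and MCM3 was next (0.19 ± 0.03). In parental cells TK1 (0.26 ± 0.03) and MCM3 (0.11 ± 0.03) rose as well, RRM2 rose furthest (0.31 ± 0.02) and CDC25A fell furthest. Of 7 MuvB and MYB genes, whose complex drives the later mitotic genes, 6 were lower in resistant cells after vehicle (median -0.35), led by MYBL2 (-0.77 ± 0.03, edgeR adjusted p = 2.83e-12), 1 rose and 2 fell with oxamate in parental cells, and 0 passed in resistant cells with edgeR (1 at an unadjusted p under 0.05), 0 with limma-voom and 1 with DESeq2. LIN9 (-0.26 ± 0.05) and LIN52 (-0.14 ± 0.05) were those that fell in parental cells. After oxamate 4 of the 7 were lower in resistant cells and none was higher (median -0.36), MYBL2 (-0.77 ± 0.03) and RBBP4 (-0.60 ± 0.02) furthest. With library size alone 4 were lower and 1 higher after vehicle (median -0.13), and 3 lower and 3 higher after oxamate (median -0.03).

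Markers of G2 and mitosis were mostly lower in resistant cells after vehicle, 10 of 11 (median -0.42, and 7 lower and 3 higher with a median of -0.20 on library size alone), with AURKB (-0.84 ± 0.02) and CDK1 (-0.82 ± 0.03) furthest and CENPF higher. After oxamate 7 were lower and 3 higher (median -0.27), against 5 lower and 6 higher on library size alone (median 0.05). Oxamate lowered 7 of the 11 in parental cells, AURKA furthest (-0.48 ± 0.03, edgeR adjusted p = 3.35e-09) and CCNB1 next (-0.30 ± 0.02), and raised 1. In resistant cells 1 of the 11 rose, CENPF (0.17 ± 0.05, edgeR adjusted p = 0.0305).

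**Figure D5:**
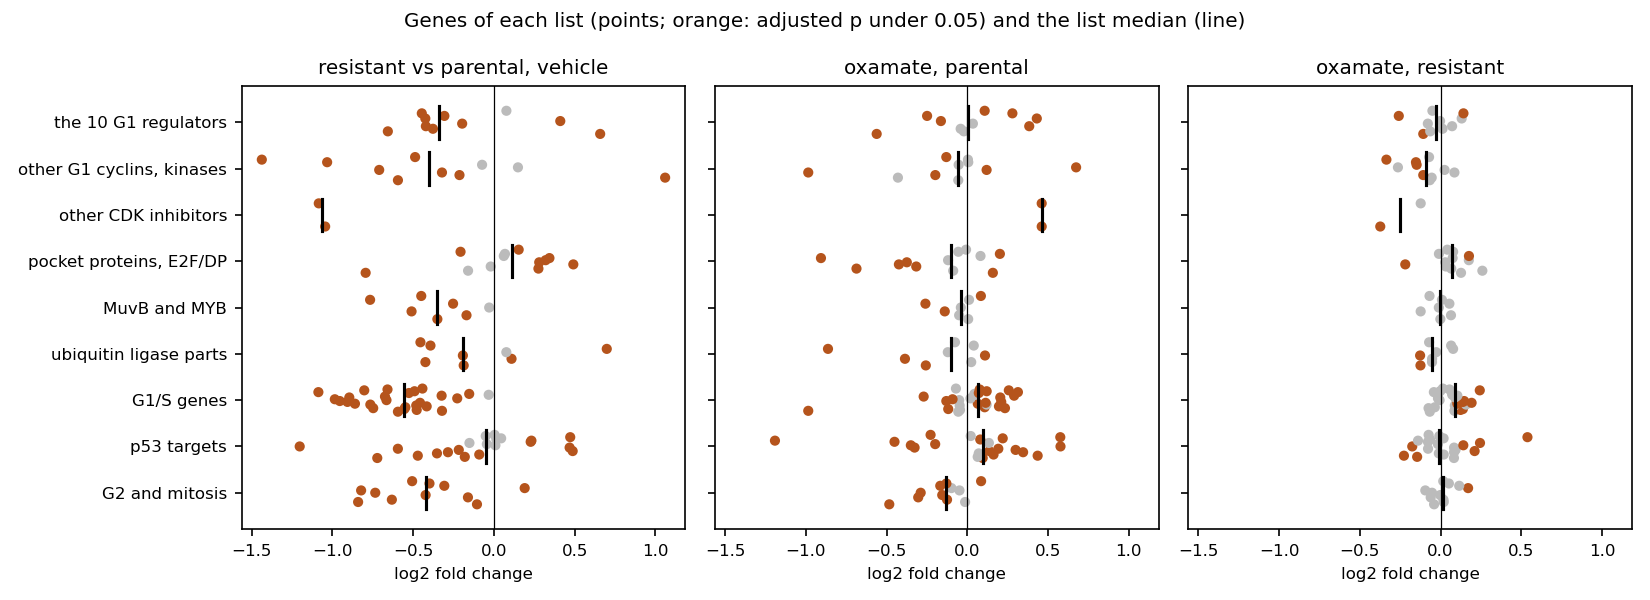
log2 fold change (x axis) of each gene (points) in the 10 G1 regulators and the 8 related lists (y axis), with the list median as a line, for resistant against parental cells after vehicle and for oxamate in each cell line. Orange points passed an edgeR adjusted p of 0.05 after TMM normalization. The G1/S genes lie left of 0 between cell lines (median -0.56, and -0.34 on library size alone), and the other inhibitors lie at -1.05 and -1.08.

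By the root mean square difference of centered log2 CPM over the 12 libraries, the genes most like CCND1 were DDX31 (0.052) and WWC1 (0.055), both at their lowest in oxamate-treated parental cells (10.7 and 8.68 CPM) and highest in vehicle-treated resistant cells (24.3 and 20.2 CPM). Those most like CDKN1A were HK1 (0.048) and RNASEH2C (0.050), highest in oxamate-treated parental cells. Those most like CCNE2, SNN (0.12) and LINC00853 (0.12), were less close. CCND1, CDKN1A and CCNE2 were the 3 of the 10 genes with the widest range of group means, at 1.22, 0.85 and 0.80 on the log2 scale.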

How the data were processed

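The authors sequenced mRNA as 2 × 150 base reads and deposited expected counts, made with Bowtie2 2.1.0 and RSEM 1.2.15 on hg38 per the submitters' processing notes, without normalization. The methods also describe STAR with featureCounts, and values that are not whole are those of RSEM. Expected counts were rounded and tested in R 4.3.3 with edgeR 4.0.16: filterByExpr, TMM, with glmQLFit and glmQLFTest in 1 fit of the 12 libraries. Adjusted p-values are Benjamini-Hochberg over 14582 genes, SE is from the F statistic and 95% intervals use the same SE. The tests were tested on simulated data. Named were the 10 genes, CDKN2A, CDKN2B and MTAP, the 2 genes with the largest absolute log2 fold change among those past the threshold in each list and comparison, and the 2 genes most like each of the 3 genes with the widest range. CDK2, POLA2, CCND2 beside CCND1, and marker genes were named besides. The genes and lists were chosen with earlier results of these data known. Alternatives were RLE, upper-quartile factors, library size alone, other filters, no rounding, a replicate block, limma-voom (limma 3.58.1), DESeq2 1.42.0, fits on the groups compared and each library left out. Leaving out the 2 libraries rich in MALAT1 was chosen after seeing the data. Positions and lengths came from GENCODE release 29 (GRCh38).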

Additional observations from a re-analysis of the deposited data

Results flagged for a closer look

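The responses to oxamate differed between the cell lines, by a contrast of the fit over all genes (edgeR adjusted p under 0.05), for 4 of the 10 G1 regulators. Of all genes tested, 22.7% were higher and 21.4% lower by this contrast, so the count does not set the 10 genes apart. On the log2 scale, resistant minus parental, the differences were 0.45 for CCND1, 0.16 for CDK6, -0.30 for CDKN1A and -0.16 for RB1. On library size alone CDKN1A and RB1 missed the threshold.

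The genes with the largest such differences in the related lists were CDC25A (1.07) and CDK3 (-0.94) among the other G1 cyclins, kinases and activators, CDKN1C (-0.83) and CDKN2D (-0.58) among the other inhibitors, and E2F8 (0.98) and E2F3 (0.75) among the E2F factors. They were LIN9 (0.31) and RBBP4 (-0.15) among the MuvB and MYB genes, FBXW7 (0.94) and CUL1 (0.33) among the ubiquitin ligase parts, and PCNA (0.37) beside CDC25A among the G1/S genes. Among p53 targets TIGAR stood at 1.05 and PLK3 at -0.75, and among markers of G2 and mitosis AURKA stood at 0.44 and MKI67 at 0.28.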

How the results depend on the processing

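Of 900 values, the log2 fold changes of the 10 genes under all alternatives, 851 kept their direction and their side of the threshold, 25 lost and 18 gained a call, and 6 reversed. On library size alone CDK4 reversed between cell lines after vehicle (0.022) and after oxamate (0.014), as did CDKN1B (0.0077) and RB1 (0.243) after oxamate and the difference between the responses of CDKN1B (0.10), and RB1 after oxamate reversed with upper-quartile factors (0.0051). These scalings move the median of all genes, as given above. Of the counts at the study's threshold, that for oxamate in parental cells went from 0 to 1 and that between cell lines after oxamate from 4 to 2 on library size alone, and that after vehicle from 2 to 1 with upper-quartile factors. The count after oxamate reached up to 5 in other settings, CDKN2C passing with RLE (-0.59) and CDK6 with upper-quartile factors (0.66). After vehicle on library size alone, CDK6 passed (0.63) and CCND3 did not (-0.44). Without the 2 libraries rich in MALAT1, the count at an adjusted p under 0.05 for oxamate in resistant cells went from 3 to 5 and that for the difference between responses from 4 to 6, and the cause was not tested. With each library left out, this count ran from 2 to 4 for oxamate in resistant cells, from 5 to 7 in parental cells and from 3 to 6 for the difference between responses. None of the 76 values of named list genes changed sign under another scaling. They were picked as the largest past the threshold in their lists, so this says little of the other list genes. On library size alone the median of the G2 and mitosis markers between cell lines after oxamate went from -0.27 to 0.05. That of the p53 targets after vehicle went from -0.05 to 0.17.

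Same-numbered replicates were checked for pairing, and the correlation of their deviations ran from -0.07 to 0.09, so the number was not taken to pair samples. With a replicate block the counts were 7, 3, 9 and 10 in the 4 comparisons, as without it, and 5 in place of 4 for the difference between responses. Depth limits CCNE2 most, whose lowest count in a library was 77.05.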

Other observations

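Parts of the ubiquitin ligases that degrade G1 regulators differed between cell lines in either direction, 5 of 8 lower and 2 higher after vehicle (median log2 fold change -0.19), against 3 lower and 3 higher on library size alone (median 0.03). Of all genes, 37.3% were lower and 38.4% higher with TMM. SKP2, which targets p27, was lower in resistant cells (32.0 ± 0.827 against 23.3 ± 0.308 CPM, -0.46 ± 0.03, edgeR adjusted p = 5.38e-09). FBXW7, which targets cyclin E, was higher (5.67 ± 0.191 against 9.18 ± 0.159 CPM, 0.70 ± 0.09, edgeR adjusted p = 5.39e-06), and it fell with oxamate in parental cells (-0.86 ± 0.11, edgeR adjusted p = 4.72e-06), as did CUL1 (-0.39 ± 0.03). After oxamate FBXW7 was at 1.64 ± 0.11 and CDC34 at -0.50 ± 0.04 between cell lines. AMBRA1, which targets D-type cyclins, fell with oxamate in parental cells (-0.26 ± 0.02, edgeR adjusted p = 1.28e-07) and in resistant cells (-0.12 ± 0.02, edgeR adjusted p = 0.00178). FBXO31 fell in resistant cells (-0.13 ± 0.03) and rose in parental cells (0.11 ± 0.03, edgeR adjusted p = 0.00299).

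Of 21 p53 targets tested beside CDKN1A, 11 rose and 6 fell with oxamate in parental cells (median 0.10, and 7 and 6 with a median of 0.02 on library size alone), and 4 rose and 3 fell in resistant cells (median -0.01, and 0.02 on library size alone). Of all genes, 28.3% rose and 30.4% fell in parental cells, and 9.01% rose and 12.5% fell in resistant cells. TIGAR fell furthest in parental cells, from 11.3 ± 0.454 to 4.96 ± 0.264 CPM (-1.19 ± 0.06, edgeR adjusted p = 6.7e-10), and PLK3 rose furthest, from 54.9 ± 0.867 to 81.9 ± 3.12 CPM (0.58 ± 0.04, edgeR adjusted p = 9.36e-09). TP53INP1 rose furthest in resistant cells (0.54 ± 0.09, edgeR adjusted p = 0.00111) and SESN1 next (0.24 ± 0.07). TP53INP1 rose in parental cells as well (0.58 ± 0.10, edgeR adjusted p = 8.59e-05). Between cell lines after vehicle 5 were higher and 9 lower (median -0.05), against 12 and 5 on library size alone (median 0.17), PLK3 the lowest (-1.20 ± 0.04) and AEN next (-0.72 ± 0.04, edgeR adjusted p = 7.12e-11). After oxamate 8 were higher and 12 lower (median -0.13), against 12 and 7 on library size alone (median 0.19), with PLK3 at -1.96 ± 0.05 and TIGAR at 1.28 ± 0.07.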
